A study of Mus musculus with 8 samples.

Results

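The genes described here are those of mitochondrial fatty acid beta-oxidation and the long-chain acyl-CoA synthetases that feed it, read in left ventricles from mice kept on normal chow or given a high-fat diet that also held L-NAME (HFD+L-NAME), a drug that blocks nitric oxide synthases. They were listed by name and placed in 8 steps of the pathway. Of 31 listed genes, 30 had a named row among the 41096 rows of the count table, and all 30 were among the 14875 genes that passed the low-count filter and were tested. Acad10 had no row under that name and was not analysed here.

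Each group held 4 libraries, each from its own mouse per the labels, which write the strain as C57BL/5NJ. Mice were 12 weeks old at the start and were on the diet for 9 weeks. The series design gives L-NAME as 0.5% and describes cohorts of both sexes with intact or deleted Nnt, the mitochondrial transhydrogenase, but no library here carries a sex, a genotype or a batch in its labels. Libraries are named below by diet and a number in accession order (chow 1 to 4, HFD+L-NAME 1 to 4), and the numbers pair no animals.

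In beta-oxidation, a fatty acid is first joined to coenzyme A by an acyl-CoA synthetase, carried into the mitochondrial matrix by the carnitine shuttle, and then shortened in repeated rounds of dehydrogenation, hydration, a second dehydrogenation and thiolysis. Auxiliary enzymes move or remove double bonds that unsaturated fatty acids bring, and the electron transfer flavoprotein passes electrons from the first dehydrogenation to the respiratory chain. The healthy adult heart draws most of its energy from this pathway, and many of its genes are known targets of the nuclear receptor PPARα.

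Levels are CPM, counts scaled to a common library total with TMM factors, and log2 fold changes are HFD+L-NAME over chow from edgeR's quasi-likelihood test, given with a standard error. The long-chain dehydrogenase, both subunits of the trifunctional protein and a pair of auxiliary enzymes, Decr1 and Ech1, stood 23.1% to 34.7% higher with HFD+L-NAME, with no overlap between the groups. Acsl6, a minor synthetase of this tissue, was 36.1% lower. No gene of the pathway passed the adjusted p threshold of 0.05 in edgeR, where 2 of 14875 genes did (0.0134%), nor in limma-voom, where no gene did (0%). DESeq2 called 6 of the 30, with 5 higher against 0.526% of all genes it tested and 1 lower against 0.437%. In the authors' deposited table the same 6 had an adjusted p under 0.05, 5 of them higher (0.58% of all genes with an adjusted p) and 1 lower (0.523%). That table is also a DESeq2 result on these counts, with the same log2 fold changes, so it is not a separate check. Whether a gene of the pathway is called thus turned on the tool.

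At an unadjusted edgeR p under 0.05, 10 of the 30 genes were higher with HFD+L-NAME, where 5.02% of all tested genes were, and 2 were lower, where 4.54% were. The 10 were Cpt1a, Cpt2, Acadl, Acadvl, Hadha, Hadhb, Acaa2, Eci2, Decr1 and Ech1, and the 2 were Acsl6 and Acad11. All 4 HFD+L-NAME libraries lay above all 4 chow libraries for 9 genes (Cpt2, Crat, Acadl, Acadvl, Hadha, Hadhb, Decr1, Ech1 and Etfdh), against 2.74% of all tested genes. They lay below them for 3 genes (Acsl6, Acad11 and Etfa), against 3.24%. The median log2 fold change of the 30 genes was 0.15, with 24 positive and 6 negative, beside a median of 0.0024 over all tested genes, 7513 positive and 7362 negative. Most of these genes are abundant: 22 averaged at least 100 CPM. Among the 1578 tested genes at that level, 7.22% were higher at an unadjusted p under 0.05 and 5.01% were higher with no overlap, while 9 of the 22 were higher on each count. This background by level was added after the data were seen.

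One chow library carries part of this count. Chow 1 was the lowest of all 8 libraries for 18 of the 30 genes. Without it, 6 genes were higher at an unadjusted p under 0.05, where 4.09% of all genes were, and the median log2 fold change was 0.11. On the other side, HFD+L-NAME 1 was the highest library for 13 genes and HFD+L-NAME 4 for 9. HFD+L-NAME 2 and 3, which hold the most adipocyte marker RNA, had the lowest pathway sums of their group (22084 and 21519 CPM). Without both, 16 genes were higher, where 3.97% of all genes were, and the median was 0.21. Leaving out the lowest libraries of a group raises such values in itself, so this does not show the part of adipocyte RNA, which was not tested.

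**Figure D1:**
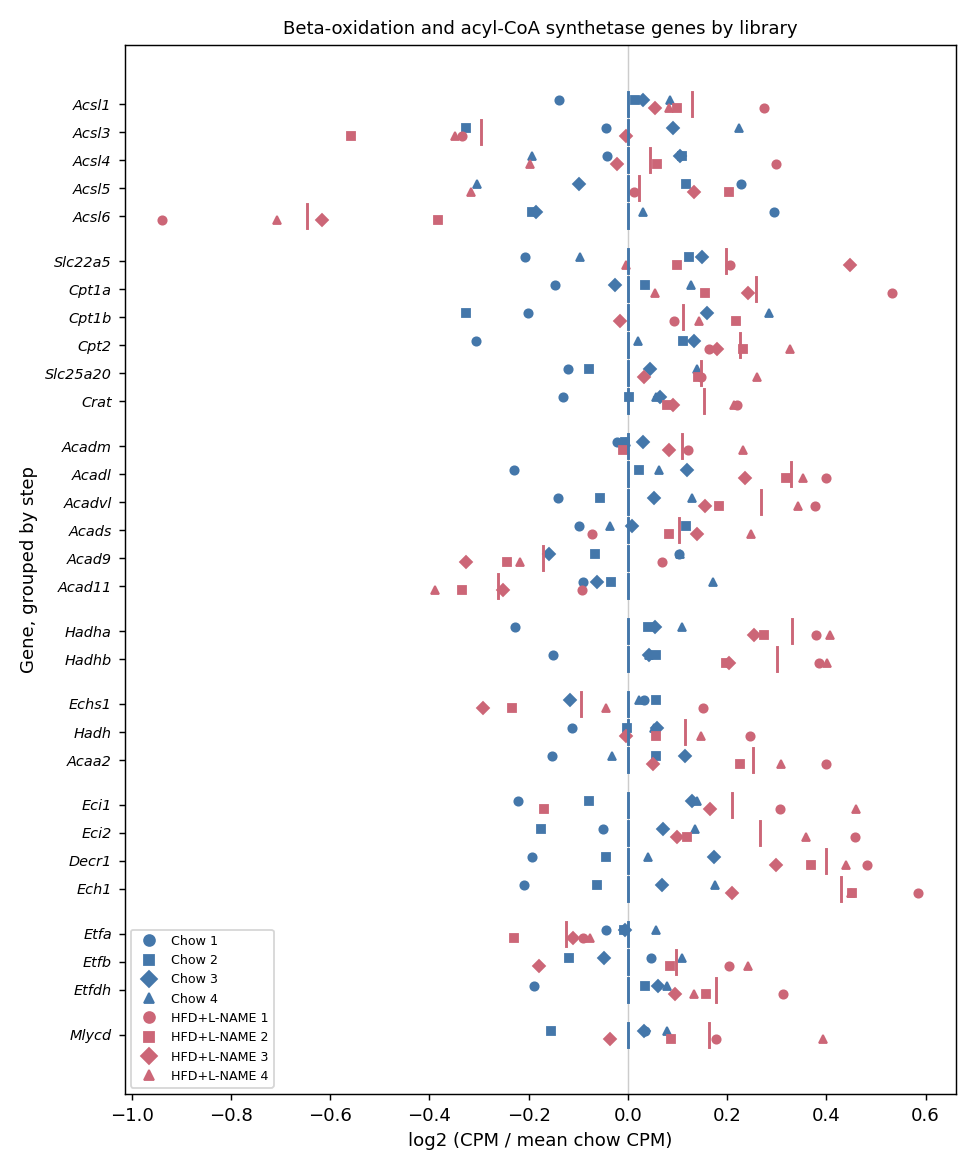
Level of each of the 30 genes in each library as log2 of its CPM over the chow mean (horizontal axis), grouped by step. Blue marks are chow and red marks HFD+L-NAME, with 1 mark per library, and vertical ticks show the log2 of the group means. Red marks lie to the right of all blue ones for 9 genes and to the left of all for 3, and chow 1 (blue circle) is the lowest mark for 18 genes.

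Activation is carried out by the long-chain acyl-CoA synthetases. Acsl1, the main isoform of heart, made up nearly all of the level of this step. Its level was 1275, 1420, 1435 and 1490 CPM in chow 1 to 4 and 1699, 1504, 1460 and 1488 CPM in HFD+L-NAME 1 to 4. The groups overlapped, with only HFD+L-NAME 1 and 2 above every chow library, and the log2 fold change was 0.13 ± 0.08 (edgeR adjusted p = 0.640; 95% interval -0.04 to 0.30). Per kilobase of exon, Acsl1 averaged 337 ± 22.0 CPM in chow, whereas Acsl3, Acsl4, Acsl5 and Acsl6 averaged 2.31 to 4.21 (SD, n = 4). Among these minor isoforms, Acsl5 was highest per kilobase at 4.21 ± 0.675 CPM and Acsl3 lowest at 2.31 ± 0.363, a gap larger than either spread, while Acsl6 at 3.15 ± 0.519 and Acsl4 at 3.06 ± 0.298 differed by less than their spread. Acsl4, which favours arachidonic acid, and Acsl5 differed little between the groups, with log2 fold changes of 0.05 ± 0.13 and 0.02 ± 0.15 and an interval for Acsl5 of -0.30 to 0.34. Acsl3, known for its place on lipid droplets and the endoplasmic reticulum, stood at 9.12 ± 1.44 CPM in chow and 7.42 ± 1.21 CPM with HFD+L-NAME (edgeR adjusted p = 0.617), with overlap.

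Acsl6, best known as the isoform of brain that favours docosahexaenoic acid, showed the lowest ratio of the pathway. It stood at 29.4, 21.0, 21.1 and 24.5 CPM in chow 1 to 4 against 12.5, 18.4, 15.6 and 14.7 CPM in HFD+L-NAME 1 to 4. Every HFD+L-NAME library was below every chow library, and chow 1, low for most of the pathway, was the highest here. The log2 fold change was -0.65 ± 0.14 (95% interval -0.96 to -0.33), with an unadjusted p of 0.000872 in edgeR and an adjusted p of 0.227 in edgeR and 0.0128 in DESeq2. The ratio of Acsl6 to Acsl1 reads was 0.0172 in chow and 0.0101 with HFD+L-NAME. A window of Acsl6 is shown because it alone in the pathway held the ERR element searched, the binding motif of the estrogen-related receptors. Acsl6 has more than 1 RefSeq start, and its other windows lacked the motif. The motif TCAAGGTCA, searched on both strands, was in 1 of 29 windows of these genes and in 0.423% of all 32851 windows. The 250 bases before the RefSeq start in the matching window are printed (GRCm38.p6, chr11:54303574-54303823, plus strand, 5′ to 3′). The match, here read on the opposite strand, is in capitals.
Acsl6: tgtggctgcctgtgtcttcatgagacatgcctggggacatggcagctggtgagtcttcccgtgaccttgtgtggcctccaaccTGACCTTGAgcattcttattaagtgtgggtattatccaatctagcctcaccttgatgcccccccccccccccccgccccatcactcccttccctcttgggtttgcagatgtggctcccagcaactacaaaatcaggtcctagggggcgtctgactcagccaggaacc

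The carnitine shuttle imports long-chain acyl groups, and 2 of its 6 genes, Cpt2 and Cpt1a, were higher with HFD+L-NAME at an unadjusted p under 0.05, none being called by edgeR or DESeq2. Cpt2, the inner membrane transferase that restores acyl-CoA in the matrix, stood at 213, 284, 289 and 267 CPM in chow 1 to 4 and 295, 309, 298 and 330 CPM in HFD+L-NAME 1 to 4. The groups did not overlap, but chow 1 was well below the other chow libraries and the highest chow library was close to the lowest HFD+L-NAME one. Its log2 fold change was 0.23 ± 0.10 (edgeR unadjusted p = 0.0432, adjusted p = 0.506), and it was 0.14 without chow 1. Cpt1a, the liver isoform of the malonyl-CoA-sensitive outer membrane transferase, stood at 74.5, 84.4, 80.9 and 90.1 CPM in chow and 119, 91.8, 97.5 and 85.7 CPM with HFD+L-NAME. HFD+L-NAME 4 lay below chow 4, and HFD+L-NAME 1 was far above the rest; the log2 fold change was 0.26 ± 0.11 (edgeR adjusted p = 0.473) and was 0.16 without HFD+L-NAME 1. Crat, carnitine acetyltransferase, averaged 670 ± 40.8 CPM in chow and 745 ± 39.1 CPM with HFD+L-NAME, with no overlap (edgeR log2 fold change 0.15 ± 0.08, adjusted p = 0.557). Slc25a20, the carnitine-acylcarnitine carrier, averaged 281 ± 23.2 and 311 ± 20.0 CPM, and Slc22a5, the plasma membrane carnitine transporter, 13.3 ± 1.57 and 15.2 ± 2.11 CPM, both with overlap.

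Cpt1b, the muscle isoform of the outer membrane transferase, is usually taken as the dominant one in heart but was counted here at 20.3 ± 4.05 CPM in chow and 22.0 ± 1.47 CPM with HFD+L-NAME, below Cpt1a. Per kilobase of exon this was 7.02 ± 1.40 against 19.1 ± 1.51 CPM in chow (SD, n = 4). In GENCODE M21, 94.8% of the exon bases of Cpt1b are shared with Gm44502, a gene annotated on the same strand, so its level is uncertain where reads of shared exons are dropped. Its log2 fold change was 0.11 ± 0.14 (edgeR adjusted p = 0.840). Mlycd, which breaks down malonyl-CoA, the inhibitor of both transferases, stood at 150 ± 10.5 and 168 ± 21.6 CPM, with overlap (edgeR adjusted p = 0.637).

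The acyl-CoA dehydrogenases, which start each round and differ in chain length, split by member. Acadl, the long-chain dehydrogenase, stood at 1328, 1583, 1692 and 1628 CPM in chow 1 to 4 and 2055, 1944, 1834 and 1988 CPM in HFD+L-NAME 1 to 4. No library of one group reached the other, and the log2 fold change was 0.33 ± 0.09 (95% interval 0.14 to 0.52; adjusted p = 0.251 in edgeR and 0.0338 in DESeq2). Acadvl, the membrane-bound very-long-chain dehydrogenase, stood at 1547, 1641, 1770 and 1865 CPM in chow and 2215, 1936, 1901 and 2163 CPM with HFD+L-NAME. Here too the groups did not overlap, but HFD+L-NAME 3 was close to chow 4; the log2 fold change was 0.27 ± 0.08 (adjusted p = 0.343 in edgeR and 0.126 in DESeq2). In GENCODE M21, 45.0% of the exon bases of Acadvl overlap Dvl2 on the opposite strand, which counting without strand would not separate. Acadm, the medium-chain dehydrogenase, averaged 1723 ± 27.0 and 1858 ± 130 CPM, and Acads, the short-chain one, 275 ± 17.4 and 295 ± 26.9 CPM, both with overlap and with edgeR adjusted p-values of 0.666 and 0.749.

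The remaining dehydrogenases stood on the other side. Acad11, which acts on acyl-CoAs of very long chains and hydroxylated acids, stood at 192, 199, 195 and 230 CPM in chow 1 to 4 and 191, 162, 171 and 156 CPM in HFD+L-NAME 1 to 4. The groups did not overlap, though chow 1 and HFD+L-NAME 1 were nearly equal, and the log2 fold change was -0.26 ± 0.09 (edgeR unadjusted p = 0.0135, adjusted p = 0.380). Acad9, known mainly as an assembly factor of respiratory complex I, averaged 59.0 ± 5.28 CPM in chow and 52.4 ± 6.52 CPM with HFD+L-NAME, with overlap (edgeR adjusted p = 0.631). Ndufaf1, its partner in that assembly, stood at 58.8, 61.2, 61.9 and 66.8 CPM in chow and 54.5, 47.9, 49.1 and 51.2 CPM with HFD+L-NAME. All 4 of these were below every chow library (log2 fold change -0.29 ± 0.08, edgeR unadjusted p = 0.00232, adjusted p = 0.246). Ecsit and Tmem126b, also of that assembly, had log2 fold changes of -0.06 ± 0.09 and -0.03 ± 0.09, with overlap (edgeR adjusted p-values 0.892 and 0.956).

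The trifunctional protein carries out the last 3 reactions for long chains. Hadha encodes its alpha subunit, with the hydratase and hydroxyacyl-CoA dehydrogenase, and stood at 1983, 2388, 2411 and 2502 CPM in chow 1 to 4 against 3020, 2806, 2768 and 3078 CPM in HFD+L-NAME 1 to 4. Hadhb encodes the beta subunit, the thiolase, and stood at 1615, 1864, 1847 and 1846 CPM in chow and at 2341, 2057, 2064 and 2368 CPM with HFD+L-NAME. Neither gene had overlapping groups, and in both chow 1 was the lowest library and HFD+L-NAME 4 the highest. The log2 fold changes were 0.33 ± 0.08 for Hadha (95% interval 0.15 to 0.52; adjusted p = 0.246 in edgeR and 0.0307 in DESeq2) and 0.30 ± 0.08 for Hadhb (0.12 to 0.48; 0.265 and 0.0458). The ratio of Hadha to Hadhb CPM hardly moved, at 1.29 ± 0.0531 in the chow group and 1.32 ± 0.0350 in the other (SD, n = 4), and ran from 1.23 to 1.36 over the 8 libraries.

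**Figure D2:**
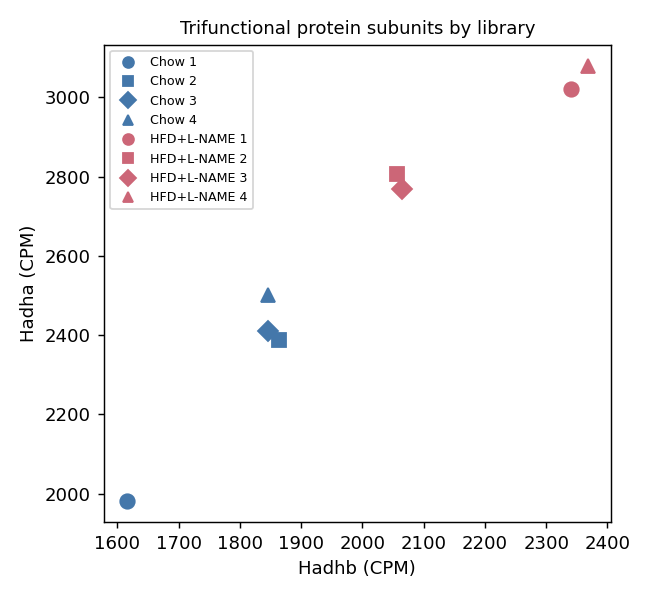
Hadha CPM (vertical axis) against Hadhb CPM (horizontal axis), 1 mark per library, blue for chow and red for HFD+L-NAME; neither axis starts at 0. The libraries lie along a line, from chow 1 at 1615 and 1983 CPM to HFD+L-NAME 4 at 2368 and 3078 CPM, and every red mark is above and to the right of every blue one.

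Hadha and Hadhb lie head to head on mouse chromosome 5, with Hadha on the minus strand starting at base 30154980 and Hadhb on the plus strand starting at base 30155253 (RefSeq, GRCm38.p6), and 272 bases between the starts. Both windows before the starts therefore hold largely the same letters, which is why this stretch is shown. It held 2 Sp1 boxes (GGGCGG, searched on both strands). The Sp1 box was in 22 of the 29 windows of the pathway (75.9%) and in 35.7% of all windows. The 250 bases before the Hadhb start (chr5:30155003-30155252, plus strand, 5′ to 3′) are printed with the Sp1 boxes in capitals.
Hadhb: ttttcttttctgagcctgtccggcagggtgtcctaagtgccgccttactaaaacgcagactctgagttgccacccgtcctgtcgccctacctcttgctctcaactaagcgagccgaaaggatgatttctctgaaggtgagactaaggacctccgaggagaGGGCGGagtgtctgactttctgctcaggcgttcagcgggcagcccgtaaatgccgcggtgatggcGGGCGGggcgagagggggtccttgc

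The matching reactions for shorter chains are split over separate matrix enzymes, and these showed a mixed picture. Acaa2, the matrix thiolase, stood at 1114, 1288, 1342 and 1211 CPM in chow 1 to 4 against 1633, 1448, 1283 and 1534 CPM in HFD+L-NAME 1 to 4. HFD+L-NAME 3 fell within the chow range while the other 3 were above it, and the log2 fold change was 0.25 ± 0.09 (edgeR unadjusted p = 0.0179, adjusted p = 0.418). Hadh, the hydroxyacyl-CoA dehydrogenase of medium and short chains, averaged 769 ± 41.5 and 832 ± 63.6 CPM (edgeR adjusted p = 0.688). Echs1, the short-chain hydratase, averaged 392 ± 20.7 CPM in chow and 368 ± 52.3 CPM with HFD+L-NAME, with a log2 fold change of -0.09 ± 0.10 (95% interval -0.32 to 0.13).

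The auxiliary enzymes, which handle double bonds, had the highest ratio of any step. Ech1, the dienoyl-CoA isomerase, stood at 1243, 1377, 1507 and 1622 CPM in chow 1 to 4 and 2155, 1965, 1662 and 1964 CPM in HFD+L-NAME 1 to 4. Every HFD+L-NAME library exceeded every chow library, HFD+L-NAME 3 by the least, and the log2 fold change was 0.43 ± 0.10 (95% interval 0.21 to 0.65; adjusted p = 0.233 in edgeR and 0.0110 in DESeq2). Decr1, the dienoyl-CoA reductase, stood at 535, 593, 690 and 630 CPM in chow and 855, 790, 753 and 830 CPM with HFD+L-NAME. These groups too did not overlap, and the log2 fold change was 0.40 ± 0.09 (0.21 to 0.59; 0.227 and 0.00623). Eci1 and Eci2, the enoyl-CoA isomerases, averaged 414 ± 49.0 and 127 ± 12.0 CPM in chow and 479 ± 85.3 and 153 ± 18.9 CPM with HFD+L-NAME, with overlap (edgeR log2 fold changes 0.21 ± 0.13 and 0.27 ± 0.10, adjusted p-values 0.652 and 0.443). Ech1 was also the most abundant gene of the pathway per kilobase of exon, at 1134 ± 129 CPM in chow and 1528 ± 161 CPM with HFD+L-NAME, ahead of Hadhb at 862 ± 57.1 and 1061 CPM, a gap in chow larger than either spread. The ratio of Ech1 to Echs1 CPM was 3.68 ± 0.523 in chow and 5.30 ± 0.412 with HFD+L-NAME.

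Ech1 had the highest log2 fold change of the pathway, and its window is shown for the Sp1 boxes it holds. Neither it nor any other of the 29 windows held the PPAR element as searched (the letters AGGNCA repeated in the same direction with 1 base between them, both strands), which 0.381% of all windows held. The 250 bases before the Ech1 start (GRCm38.p6, chr7:28825088-28825337, plus strand, 5′ to 3′) are printed with 2 Sp1 boxes in capitals, the second read on the opposite strand. Windows of 300 bases, 250 before and 50 after each RefSeq start, were found for 26 of the 31 genes. Acsl6 had more than 1 of them.
Ech1: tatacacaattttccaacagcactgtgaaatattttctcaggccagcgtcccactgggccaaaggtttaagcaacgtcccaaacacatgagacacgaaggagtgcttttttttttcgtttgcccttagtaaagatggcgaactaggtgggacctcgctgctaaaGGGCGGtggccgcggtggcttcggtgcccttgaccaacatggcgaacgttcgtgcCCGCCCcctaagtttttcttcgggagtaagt

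Electron transfer showed opposite signs within the step. Etfa, the alpha subunit of the electron transfer flavoprotein, averaged 1103 ± 32.6 CPM in chow and 1011 ± 47.9 CPM with HFD+L-NAME. Its 4 HFD+L-NAME libraries, between 941 and 1047 CPM, lay below the 4 chow libraries, between 1069 and 1148 CPM, and the log2 fold change was -0.13 ± 0.07 (edgeR adjusted p = 0.602). Etfdh, which passes the electrons on to ubiquinone, stood at 810, 946, 964 and 975 CPM in chow 1 to 4 against 1148, 1030, 987 and 1013 CPM in HFD+L-NAME 1 to 4, with no overlap (log2 fold change 0.18 ± 0.08, edgeR adjusted p = 0.543). Etfb, the beta subunit, averaged 124 ± 8.63 and 132 ± 16.7 CPM, with overlap. In GENCODE M21, 69.1% of the exon bases of Etfb are shared with Gm45233 on the same strand, so its level is uncertain.

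Summed by step, the differences ran from 1.73% to 30.3%. The auxiliary enzymes stood at 2256, 2476, 2784 and 2848 CPM in chow 1 to 4 and 3697, 3263, 3016 and 3527 CPM in HFD+L-NAME 1 to 4, and the trifunctional protein at 3598, 4252, 4258 and 4349 CPM and 5362, 4863, 4832 and 5446 CPM. In both steps the groups did not overlap, and the means were 30.3% and 24.6% higher with HFD+L-NAME. The acyl-CoA dehydrogenases (15.6% higher) and the carnitine shuttle (12.8% higher) did not overlap either. Activation (8.36%), the steps for shorter chains (11.5%), malonyl-CoA removal (12.0%) and electron transfer (1.73%) overlapped. All 30 genes together made up 1.97% of the scaled counts in chow and 2.30% with HFD+L-NAME, or 19732 ± 1312 and 23012 ± 1434 CPM (SD, n = 4), a difference of 16.6%. These sums carry no test, and they weigh each gene by its level. Whether steps differed from one another was not tested.

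**Figure D3:**
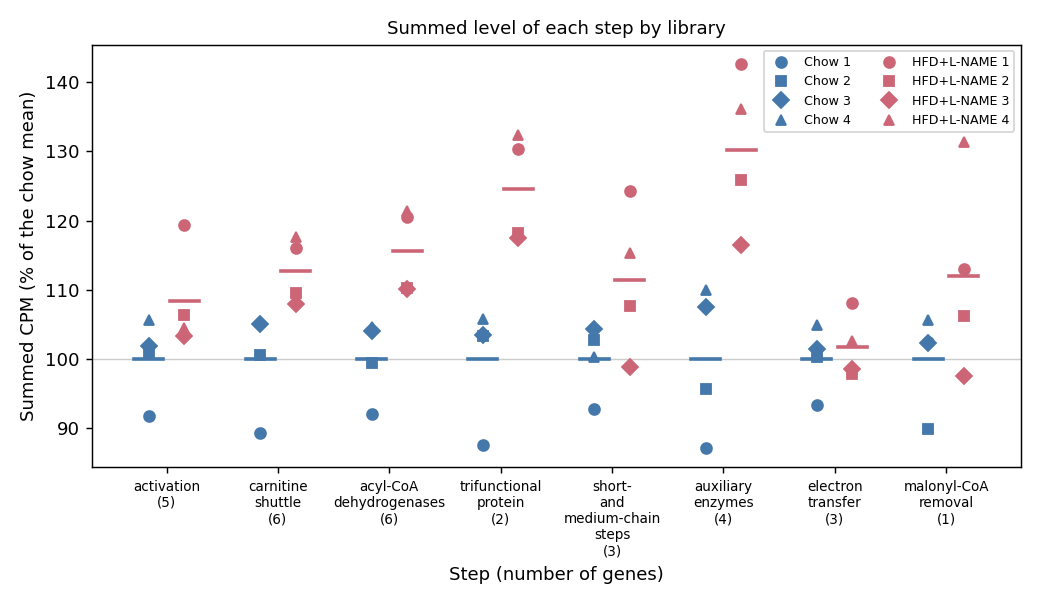
Summed CPM of each step as a percentage of its chow mean (vertical axis, which does not start at 0), with the number of genes in brackets; marks are libraries, blue for chow and red for HFD+L-NAME, and bars are group means. The groups separate for the carnitine shuttle, the dehydrogenases, the trifunctional protein and the auxiliary enzymes, with group means 12.8%, 15.6%, 24.6% and 30.3% apart, and chow 1 (blue circle) is lowest in all steps but malonyl-CoA removal.

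Neighbouring pathways were read from lists of other genes, none of which held a gene called by edgeR or DESeq2. The other acyl-CoA synthetases, with 12 of 15 tested, had a median log2 fold change of 0.29. Of these, 3 were higher at an unadjusted p under 0.05, where 5.02% of all tested genes were. The largest log2 fold changes, 0.77 to 1.46, were those of Slc27a3, Slc27a6, Acss3 and Acsbg1, which averaged only 0.181 to 1.01 CPM in chow. Acss1, the most abundant of the list at 526 CPM in chow, stood at 0.01 ± 0.13. Slc27a1, a fatty acid transport protein with synthetase activity, averaged 250 ± 24.3 CPM in chow and 310 ± 44.4 CPM with HFD+L-NAME (edgeR log2 fold change 0.31 ± 0.11, adjusted p = 0.412). Acss3, a short-chain synthetase, was scarce at 1.01 ± 0.392 and 2.21 ± 0.719 CPM (1.13 ± 0.42, edgeR adjusted p = 0.427). The other carnitine genes had a median of 0.20 over 6 tested, with no gene past that threshold; Slc22a4 and Slc25a29, both carriers, had edgeR log2 fold changes of 0.29 ± 0.17 and 0.27 ± 0.25. The list of malonyl-CoA and AMPK control had a median of -0.01 over 8 genes, with the AMPK subunits Prkab1 at -0.22 ± 0.11 and Prkag2 at 0.21 ± 0.11.

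The lists of other mitochondrial and peroxisomal oxidation had medians on the other side of 0. Among 20 genes listed as other mitochondrial acyl-CoA enzymes, mainly of amino acid breakdown, 16 had a negative log2 fold change (median -0.09). The list also held the complex I assembly genes Ndufaf1, Ecsit and Tmem126b, which are not acyl-CoA enzymes and are all among the 16. Gcdh, glutaryl-CoA dehydrogenase, which also hands electrons to the flavoprotein, averaged 92.3 ± 4.02 CPM in chow and 77.9 ± 7.27 CPM with HFD+L-NAME, with no overlap (edgeR log2 fold change -0.25 ± 0.08, adjusted p = 0.370). Peroxisomal beta-oxidation had a median of -0.07 over 12 genes, with the thiolase Acaa1b at -0.30 ± 0.14 and the reductase Pecr at -0.25 ± 0.13, neither past an unadjusted p of 0.05. The citrate cycle had a median of -0.05 over 18 genes, with Dld at -0.15 ± 0.07 and the succinate dehydrogenase subunit Sdhb at -0.18 ± 0.09. Respiratory chain subunits had a median of -0.09, with 29 of 35 negative and 1, Ndufs8 of complex I, past an unadjusted p of 0.05 (-0.20 ± 0.08, edgeR adjusted p = 0.484); Ndufa9, also of complex I, stood at -0.14 ± 0.08. Regulators of fatty acid oxidation had a median of 0.08 over 13 genes, with the retinoid receptor Rxrg at -0.15 ± 0.09 and the coactivator Ppargc1a at 0.74 ± 0.41 (edgeR adjusted p = 0.610), the latter with 1 library far above the others. No list was tested against another.

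**Figure D4:**
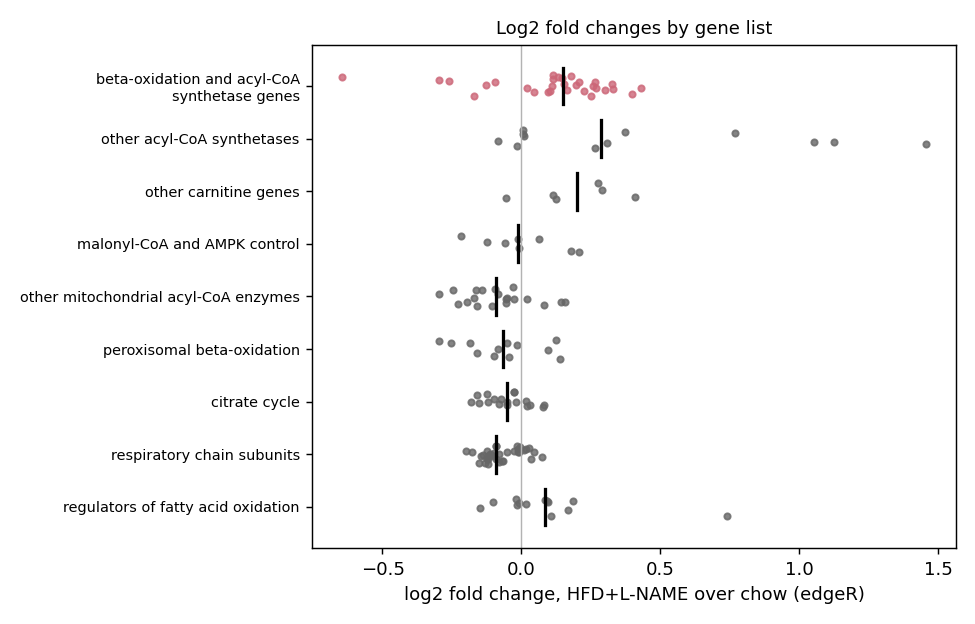
Log2 fold change, HFD+L-NAME over chow, from edgeR (horizontal axis) of each tested gene in the beta-oxidation list (red) and 8 neighbouring lists (grey), with a black tick at each list's median. The medians are 0.15 for beta-oxidation, 0.29 for other acyl-CoA synthetases and 0.20 for other carnitine genes, and between -0.09 and 0.08 for the other lists. The largest values among the other acyl-CoA synthetases are those of scarce genes, at 0.181 to 1.01 CPM in chow.

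Total counts ran from 31522074 to 52053633 and were deeper on average in chow (48623199) than in HFD+L-NAME (36679075) (two-sided exact permutation p = 0.0286 over 70 arrangements, the smallest that n = 4 each allows). No gene of the pathway had fewer than 253 counts in a library. The part of depth in the results was not tested. The ventricular light chains Myl2 and Myl3 averaged 7032 ± 423 and 5548 ± 475 CPM in chow and 6097 ± 1481 and 4561 ± 838 CPM with HFD+L-NAME (SD, n = 4), but atrial transcripts were also present. Myl7, an atrial light chain, stood at 290, 0.714, 283 and 1.02 CPM in chow 1 to 4 against 10.2, 686, 293 and 216 CPM in HFD+L-NAME 1 to 4. The 12 genes of the ventricular cardiomyocyte list, several of which atrial muscle also expresses, summed to 122048 to 141525 CPM in chow and to 108620 to 135150 CPM with HFD+L-NAME. Of these 12, 11 had a negative log2 fold change, with a median of -0.15. At an unadjusted edgeR p under 0.05, 5 were lower (Myl3, Tnnt2, Actc1, Mybpc3 and Tpm1). Of all tested genes 4.54% were, and of the 1578 at 100 CPM or more, 95 were. None of the 12 passed the adjusted threshold in edgeR or DESeq2. Tnnt2 and Mybpc3, a troponin and a myosin-binding protein, had no overlap (edgeR log2 fold changes -0.34 ± 0.10 and -0.26 ± 0.09, adjusted p-values 0.280 and 0.399). The part of this shift in the pathway values was not tested. The atrial list summed to 3581, 1084, 3593 and 1393 CPM in chow 1 to 4 and to 1211, 6220, 3457 and 2428 CPM in HFD+L-NAME 1 to 4, with overlap. With an atrial score as a covariate 13 genes of the pathway were higher at an unadjusted p under 0.05, where 5.88% of all tested genes were. The adipocyte list, with 8 of 12 genes tested, summed to 44.3, 35.4, 40.8 and 32.5 CPM in chow and to 68.1, 141, 106 and 54.3 CPM with HFD+L-NAME. All 8 tested genes were higher with HFD+L-NAME at an unadjusted edgeR p under 0.05, where 5.02% of all tested genes were. Their median log2 fold change was 2.70, none was called by edgeR, and DESeq2 called Cidec (adjusted p = 0.00169). Cfd and Cidea had no overlap between the groups. In the summed level, the separation of the groups rests on Cidea, which heart muscle also expresses. Without it the sums were 20.5, 3.93, 4.86 and 3.75 CPM in chow and 24.3, 98.6, 68.6 and 13.6 CPM with HFD+L-NAME, and chow 1 lay above HFD+L-NAME 4. Counts of Ucp1, a brown fat marker of the list, were 487 and 166 in HFD+L-NAME 2 and 3 and 0 in HFD+L-NAME 1 and 4. They ran from 0 to 14 in chow, where Adrb3 had 0 counts in all 4. Retn and Elovl3, like Ucp1 and Adrb3 too scarce to be tested, went the other way. They had 23 and 9 counts in chow 1, 0 in chow 2 to 4, and at most 4 and 3 in any HFD+L-NAME library. Hepatocyte and skeletal muscle markers summed to at most 30.2 and 4.99 CPM in any library. The pathway's summed level was highest in HFD+L-NAME 1 and 4 (24493 and 23954 CPM), which had the least adipocyte RNA of their group. Without HFD+L-NAME 2 and 3, the log2 fold changes of Ech1, Decr1, Hadha and Hadhb were 0.52, 0.46, 0.40 and 0.40. Because those libraries had the lowest pathway sums of the group, higher values follow from leaving them out. The part of adipocyte RNA in the pathway values was not tested. In whole tissue, fewer cells of a type and less RNA per cell cannot be told apart.

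**Figure D5:**
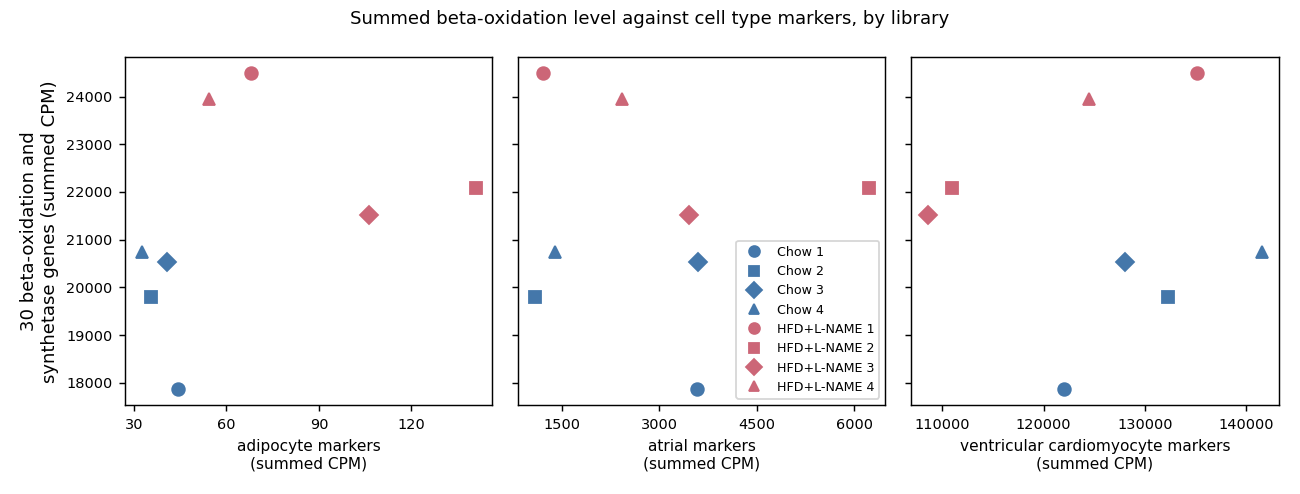
Summed CPM of the 30 genes (vertical axis, not starting at 0) against summed CPM of adipocyte, atrial and ventricular cardiomyocyte markers (horizontal axes), 1 mark per library, blue for chow and red for HFD+L-NAME. HFD+L-NAME 2 and 3 have the most adipocyte RNA, 141 and 106 CPM, and the lowest pathway sums of their group, 22084 and 21519 CPM; atrial and ventricular sums overlap between the groups.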

How the data were processed

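RNA-seq counts of 8 left ventricles, 4 per diet, were analysed. The authors deposited counts for each gene, made, according to the submitters' processing notes, with STAR 2.6 after Trim Galore 0.4.0 and bcl2fastq 1.8.4, with DESeq2 1.22.1 also listed. A human build is named there, while the deposited rows carry C57BL/6NJ strain identifiers, so no coordinates come from the files. How strand was treated in counting, and by which tool, is not given in the sources used here. From the authors' deposited table of all genes, which holds a mean normalised signal, log2 fold changes, a test score and p-values, the gene names, log2 fold changes and adjusted p-values were taken. Library preparation used total RNA and an Illumina TruSeq kit, per the labels' protocols.

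The whole table was fitted with the quasi-likelihood test of edgeR 4.0.16 (R 4.3.3), using TMM factors, filterByExpr (minimum count 10) and Benjamini-Hochberg adjustment over all tested genes at a threshold of 0.05, with no covariate. Standard errors are the log2 fold change over the square root of F, and 95% intervals use the fit's degrees of freedom. The edgeR fit was run on simulated data, but with changes larger than those of any pathway gene. It therefore says nothing about detecting changes of the size seen here. DESeq2 1.42.0, limma-voom 3.58.1, other scalings and filters, an atrial marker covariate, subsets of libraries and each library left out were the alternatives. The genes and lists were chosen with earlier results of these data known. Text names all 30 genes and, from each neighbouring list, genes called by edgeR or DESeq2 and otherwise up to 2 with the smallest edgeR p. Ndufaf1 and Gcdh come from that rule, while Ecsit and Tmem126b are named beside Ndufaf1. Levels per kilobase divide CPM by the union of exons in GENCODE M21 (GRCm38), which is not the files' annotation. Promoter sequences are RefSeq's (GRCm38.p6). The motifs were chosen after the values were seen, and an NRF1 motif and a shorter ERR core were searched and left out. A match is a description of letters only.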

Additional observations from a re-analysis of the deposited data

Results flagged for a closer look

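Of 60 sets of 4 libraries examined, 1 held a library far from the rest, where chance alone flags about 1 in 20. Hadhb in chow 1 stood at 1615 CPM while the other chow libraries lay between 1846 and 1864 CPM, a gap of 0.930 of the group's range against a critical value of 0.829. Without chow 1 the direction of the Hadhb difference was the same.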

How the results depend on the processing

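Over 19 alternatives the number of genes called among all tested genes, 2 in edgeR, was 161 with DESeq2, 34 with no filter on low counts, 1 with a robust fit, and 0 with limma-voom, with the atrial marker covariate, without HFD+L-NAME 2 and 3, and in the 5 libraries with Myl7 above 200 CPM. It ran from 0 to 3 with a library left out. Genes of the pathway called numbered 6 with DESeq2 and 0 under every other alternative. Genes higher at an unadjusted p under 0.05 (10) numbered 16 without HFD+L-NAME 2 and 3 and 6 to 12 with 1 library left out, with 6 without chow 1. Genes lower (2) numbered 1 without HFD+L-NAME 2 and 3, and 2 to 3 with 1 library left out. The median log2 fold change ran from 0.11 to 0.21. Signs turned for 3 genes, all near 0. Acsl4 was at -0.080 in those 5 libraries and ran from -0.046 to 0.12 with 1 library left out. Acsl5 was at -0.048 in the 5 libraries, -0.017 with the covariate, -0.14 without HFD+L-NAME 2 and 3, and from -0.067 to 0.12 with 1 library left out. Echs1 was at 0.059 without HFD+L-NAME 2 and 3. The cause was not tested. No paired analysis was made, because each library is from its own mouse and the labels pair no animals.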

Other observations

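Ppargc1a, the coactivator of oxidative genes, stood at 144, 97.0, 151 and 198 CPM in chow 1 to 4 against 545, 154, 142 and 143 CPM in HFD+L-NAME 1 to 4. The single high library, HFD+L-NAME 1, is also the one with the highest level of 13 of the 30 pathway genes, the lowest Acsl6 (12.5 CPM) and the highest Cpt1a (119 CPM). Its age, diet and protocol labels are those of the other 3 libraries of its group. HFD+L-NAME 4, the highest library for 9 of the 30 genes, had only 143 CPM of Ppargc1a. A link between Ppargc1a and the pathway was not tested.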
